A study of Mus musculus with 84 samples.

Results

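Htr3a neurons are the airway-projecting vagal sensory neurons in which the transcript of Htr3a, the gene for the A subunit of the serotonin 5-HT3 receptor, reached 10 CPM (reads of a gene per 1000000 counted reads of that neuron). They were compared with neurons of the same source in which Htr3a stayed below that level. All neurons came from the vagal ganglia of C57BL/6 mice and had been labelled from the airways with 2% DiI, a lipophilic dye that travels back along axons to the cell body. Each was collected alone, its mRNA was amplified, and its library was read with 76-base reads. The labels put all 84 neurons in 1 group and name no genotype beyond the strain, no other treatment, no age and no animal of origin.

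A neuron was kept when it had at least 5000000 counts, at least 5000 genes at 10 CPM or more, and Prdm12, a transcription factor of jugular neurons, below 10 CPM. Of 84 neurons, 12 had too few counts, 7 of the remaining 72 had Prdm12, and 33 more had too few genes. This left 32 neurons, of which 11 were Htr3a neurons and 21 were not. Htr3a was also present in 5 of the 7 Prdm12 neurons and in 18 of the 33 neurons with too few genes, so the 11 compared here are a part of the 34 neurons with Htr3a at sufficient depth. The filter on gene number therefore set aside more Htr3a neurons than it kept. The groups were chosen by the CPM of Htr3a and Prdm12, the total count and the number of genes, so these values are a description. Htr3a stood at 4054, 3239, 2925, 1629, 1454, 1178, 1166, 643, 274.9, 47.5 and 31.1 CPM in the 11 neurons, and ran from 0.0556 to 9.83 CPM (median 1.38) in the other 21. The neurons nearest the threshold were AM272 at 31.1 CPM and AM006 at 47.5 CPM inside it, and AM249 at 9.83 CPM and AM239 at 7.03 CPM outside it.

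The 5-HT3 receptor is the ion channel among serotonin receptors: binding of serotonin opens a pore for cations and depolarises the cell at once, whereas the other serotonin receptors act through G proteins. A subunits can form channels alone, and B subunits, encoded by Htr3b, join them and alter the conductance. In vagal afferents the receptor is known for starting reflexes and nausea when serotonin is released from neuroendocrine cells of the airway and gut, from platelets or from mast cells. In the mouse the nodose ganglion, of placodal origin, and the jugular ganglion, of neural crest origin, are fused.

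The depth of the 2 sets of neurons overlapped. Total counts ran from 7667941 to 20668832 in the Htr3a neurons, with 5885 to 8359 genes at 10 CPM or more and a median of 7799. The other neurons had from 10274511 to 20063519 counts and from 5231 to 8870 genes, with a median of 8068. In the shallowest neuron 10 CPM was worth 76.7 counts. Since no label names the animals, a group counts as 1 sample: there is no test, shares carry exact 95% intervals after Clopper and Pearson and differences between shares 95% intervals after Newcombe, and both cover counting error only. A gene was called higher or lower where its share of neurons at 10 CPM or more differed by at least 40 percentage points. A second rule asked for a 4-fold difference in level, a difference of 2 or more between the medians of log2(CPM + 10).

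Markers of nodose neurons were present in both sets. The neurotrophin receptor gene Ntrk2 was at 10 CPM or more in all 32 neurons, the homeobox gene Hoxb5 in 11 of 11 Htr3a neurons and 20 of 21 other neurons, and Hoxb4 in 11 and 20. Hoxb6 was in 8 and 13 neurons. Ntrk3, a second neurotrophin receptor gene of the list, was in 3 and 10, a difference of -20.3 points. Phox2a, a homeobox gene of the placodal lineage, was found in 2 of 11 Htr3a neurons and 0 of 21 other neurons. Of the jugular markers other than Prdm12, Runx1 was in 11 and 20 neurons, Tac1 in 6 and 15, and Prrxl1 in 2 and 13, and Mrgprd and Wfdc2 reached at most 0.169 CPM in either. The summed level of the 6 jugular markers had a median of 116 CPM in the Htr3a neurons and 385 CPM in the others, and that of the 7 nodose markers 1122 and 673 CPM. The jugular sum rests largely on Tac1, at medians of 10.01 and 295.5 CPM, and Runx1, at 66.9 and 95.4 CPM. Since the 21 neurons thus carry jugular-list genes as well, they are called here by the rule, as the other neurons, and not by a ganglion.

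In all, 146 of 10509 genes tested (1.39%) were more frequent in the Htr3a neurons by 40 points or more, Htr3a included, and 126 (1.20%) were less frequent, or 2.59% in either direction. By level, 51 (0.485%) were 4-fold higher and 49 (0.466%) 4-fold lower. With every neuron thinned to the same depth, 134 genes were called higher and 191 lower, with 12 Htr3a neurons, since AM249 then reached 10 CPM of Htr3a. Over all genes other than Htr3a the median difference in share was 0. The genes with the largest differences on the higher side were Htr3b, the transcription factor Tbx3, the adhesion receptor Adgrl2, the monoamine transporter Slc29a4, the peptide receptor Crhr2 and the antiviral factor Samd9l. On the lower side they were the potassium channel regulator Kcnip3, the proteoglycan Gpc5, the guidance ligand Slit1, the potassium channel Kcna1 and the membrane receptor Paqr5, with the predicted gene Gm7271. Many of these genes lie near the threshold in level. At a threshold of 50 CPM 38 of the 57 genes named here as called by share, Htr3a left aside, no longer differed by 40 points. The 19 that still did were Htr3b, Tbx3, Crhr2, Cux2, Maob, Hpcal1, S100a11, Dkk3, Fxyd6, Dgkg, Sertm1 and Bex1 on the higher side and Kcnip3, Kcnv1, Plxnc1, Sv2b, Gm7271, Pappa2 and Spon1 on the lower. Among the others the differences came to 27.3 points for Adgrl2 and Samd9l, 36.4 for Slc29a4, -23.8 for Slit1, -29.0 for Gpc5, -14.3 for Paqr5 and -4.76 for Kcna1. With the Htr3a threshold at 5 CPM, 29 of the 57 lost their call, Maob at 33.7 points and Adgrl2 at 39.6 points among them.

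**Figure D1:**
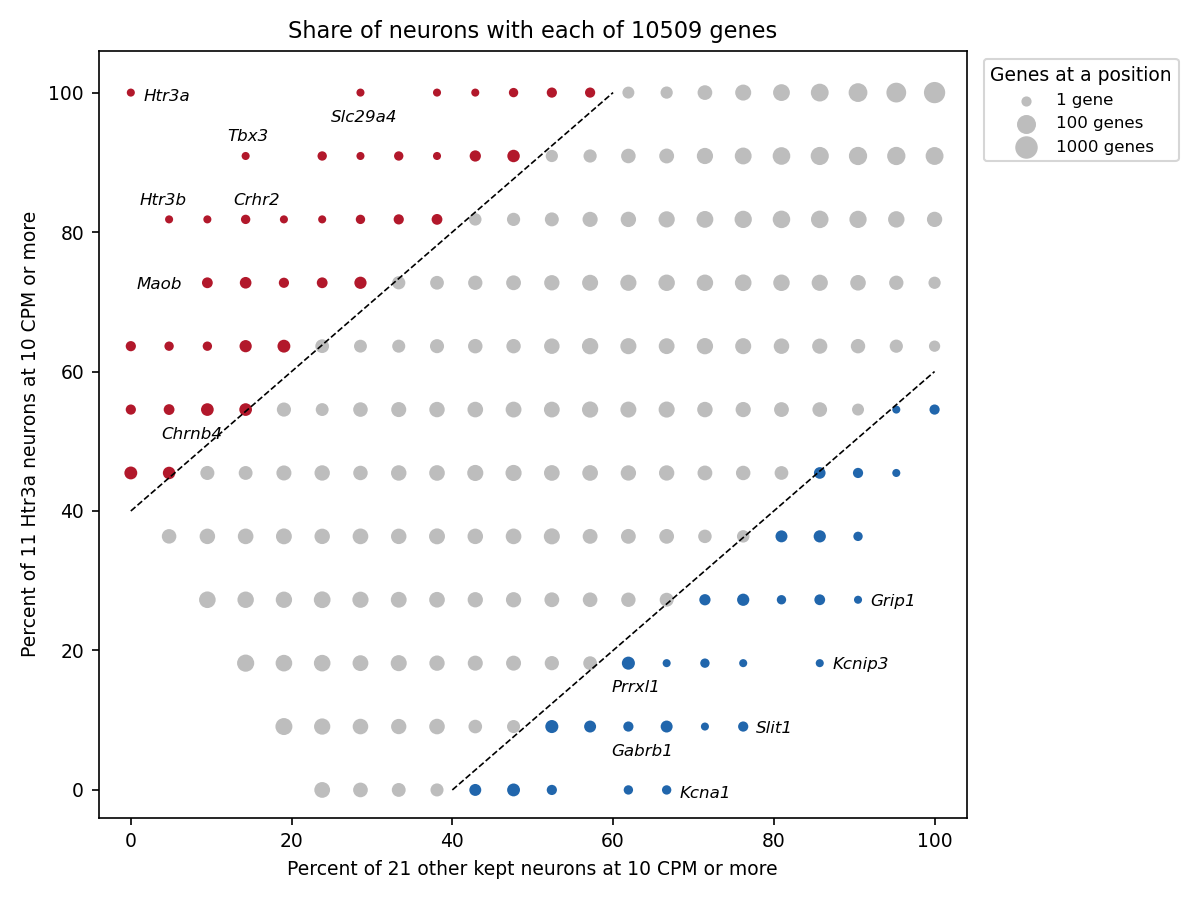
Share of the 11 Htr3a neurons (vertical axis, percent) against the share of the 21 other neurons (horizontal axis, percent) at 10 CPM or more, for 10509 genes; a point stands for all genes at that position and grows with their number on a log scale. Red points lie 40 points or more above equality and blue points 40 or more below it (dashed lines), and Htr3a stands at 100 and 0% by choice of the groups.

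Htr3b, the B subunit gene, had the largest difference of all genes but Htr3a. It was found in 9 of 11 Htr3a neurons (81.8%, 48.2 to 97.7%) and 1 of 21 other neurons (4.76%, 0.120 to 23.8%), a difference of 77.1 points (42.5 to 90.7). Its level ran from 0.216 to 656 CPM (median 109) in the Htr3a neurons and from 0 to 13.3 CPM (median 0) in the other neurons. In the 9 Htr3a neurons with Htr3b the values were 656, 551, 533, 301.1, 135, 109, 103, 92.3 and 27.7 CPM, and the single other neuron with it had 13.3 CPM. The 2 Htr3a neurons without it were AM006 and AM272, those with the least Htr3a. Htr3a (chromosome 9, 48899213 to 48911099) and Htr3b (chromosome 9, 48935008 to 48964990) lie on the minus strand of the same chromosome, 23.9 kb apart in GRCm38 (GENCODE M21), from which all gene positions here are taken. Htr3a overlaps Gm32335 on the opposite strand, and the strand setting of the count is not given in the sources used here.

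The 250 bases upstream of the transcript start of Htr3b and of Crhr2 are shown because these genes were found in the same 9 Htr3a neurons. The sequences are from RefSeq on GRCm38.p6, at chr9:48964991-48965240 and chr6:55133017-55133266, both on the minus strand, read 5′ to 3′, and capitals mark TATAAA.
Htr3b: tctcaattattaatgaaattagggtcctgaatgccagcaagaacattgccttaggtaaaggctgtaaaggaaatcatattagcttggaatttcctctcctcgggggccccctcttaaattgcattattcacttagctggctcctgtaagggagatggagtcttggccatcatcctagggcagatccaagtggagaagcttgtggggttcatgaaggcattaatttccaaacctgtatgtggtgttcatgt
Crhr2: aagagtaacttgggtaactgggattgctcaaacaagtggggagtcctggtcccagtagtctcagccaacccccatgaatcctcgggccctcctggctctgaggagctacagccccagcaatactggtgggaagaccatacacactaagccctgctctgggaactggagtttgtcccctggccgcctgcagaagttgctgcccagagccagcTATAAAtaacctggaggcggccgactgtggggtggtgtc
Within windows of 300 bases, from 250 before to 50 after the start, AGGTGT (the core that T-box factors such as Tbx3 are known to bind) and TATAAA were searched on both strands. AGGTGT, which does not overlap TATAAA, was found in none of the windows of Htr3b, Crhr2, Chrna3, Chrnb4 or Slc29a4, and TATAAA was found in those of Crhr2 and Slc29a4. Of 145 windows of 111 genes called higher, 8.97% held AGGTGT and 11.7% held TATAAA, beside 10.4% and 6.63% of 10417 windows of genes tested and 13.7% and 13.6% of all 32851 windows. Of 119 windows of 85 genes called lower, 10.9% and 6.72% held them.

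Of 16 listed serotonin genes, 4 reached 10 CPM in enough neurons to be tested: Htr3a, Htr3b, Htr1d and Htr1f. The other 12 could not be called in either direction. Htr1d, an inhibitory receptor, was at 10 CPM or more in 1 of 11 Htr3a neurons and 9 of 21 other neurons, a difference of -33.8 points, and ran up to 55.9 CPM in the others, and Htr1f was found in 1 and 4 neurons, so neither was called. Of the untested genes, Htr2b was found in 1 and 2 neurons, Htr5a in 2 and 2, Htr5b in 1 and 1, Htr1b and Htr2c in 1 and 0, and the serotonin uptake transporter Slc6a4 in 0 and 2. Htr1a, Htr2a, Htr4, Htr6, Htr7 and Tph2, which makes serotonin in neurons, reached 10 CPM in no kept neuron. By the exact intervals this allows shares of up to 28.5% in 11 and 16.1% in 21 neurons. Among chaperones, Ric3, which helps 5-HT3 and nicotinic subunits to assemble, was in 10 of 11 Htr3a neurons and 19 of 21 other neurons, at medians of 67.5 against 60.8 CPM. Tmem35a, a nicotinic receptor chaperone, was in 8 and 12, Ly6h, which restrains nicotinic receptors, in 3 and 11, the related Lynx1 in all, and Nectin1 in 1 and 0.

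Maob and Slc29a4, which act on monoamines, were called higher, and Maoa and Slc18a2, which do so too, were not called. Maob (chromosome X, 16709282 to 16817366), which oxidises amines in mitochondria, was found in 8 of 11 Htr3a neurons (72.7%, 39.03 to 94.0%) and 2 of 21 other neurons (9.52%, 1.17 to 30.4%), and ran from 0 to 397 CPM (median 222) in the Htr3a neurons and from 0 to 96.4 CPM (median 0.100) in the other neurons. Of the 8 values, 7 lay between 83.7 and 397 CPM and the eighth was 12.8 CPM. Slc29a4 (chromosome 5, 142692512 to 142722490), a low-affinity uptake transporter for serotonin and other monoamines, was found in 11 of 11 Htr3a neurons (100%, 71.5 to 100%) and 6 of 21 other neurons (28.6%, 11.3 to 52.2%), and ran from 16.5 to 128 CPM (median 32.1) in the Htr3a neurons and from 0 to 47.4 CPM (median 5.67) in the other neurons. Every Htr3a neuron was thus above the threshold, though the groups overlapped in level. Maoa, which prefers serotonin as its substrate and was named after its values were seen, was in 10 and 19 neurons at medians of 183 against 65.5 CPM. Slc18a2, the vesicular monoamine transporter, likewise named after its values were seen, was in 6 and 16 neurons at 16.04 against 40.6 CPM.

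**Figure D2:**
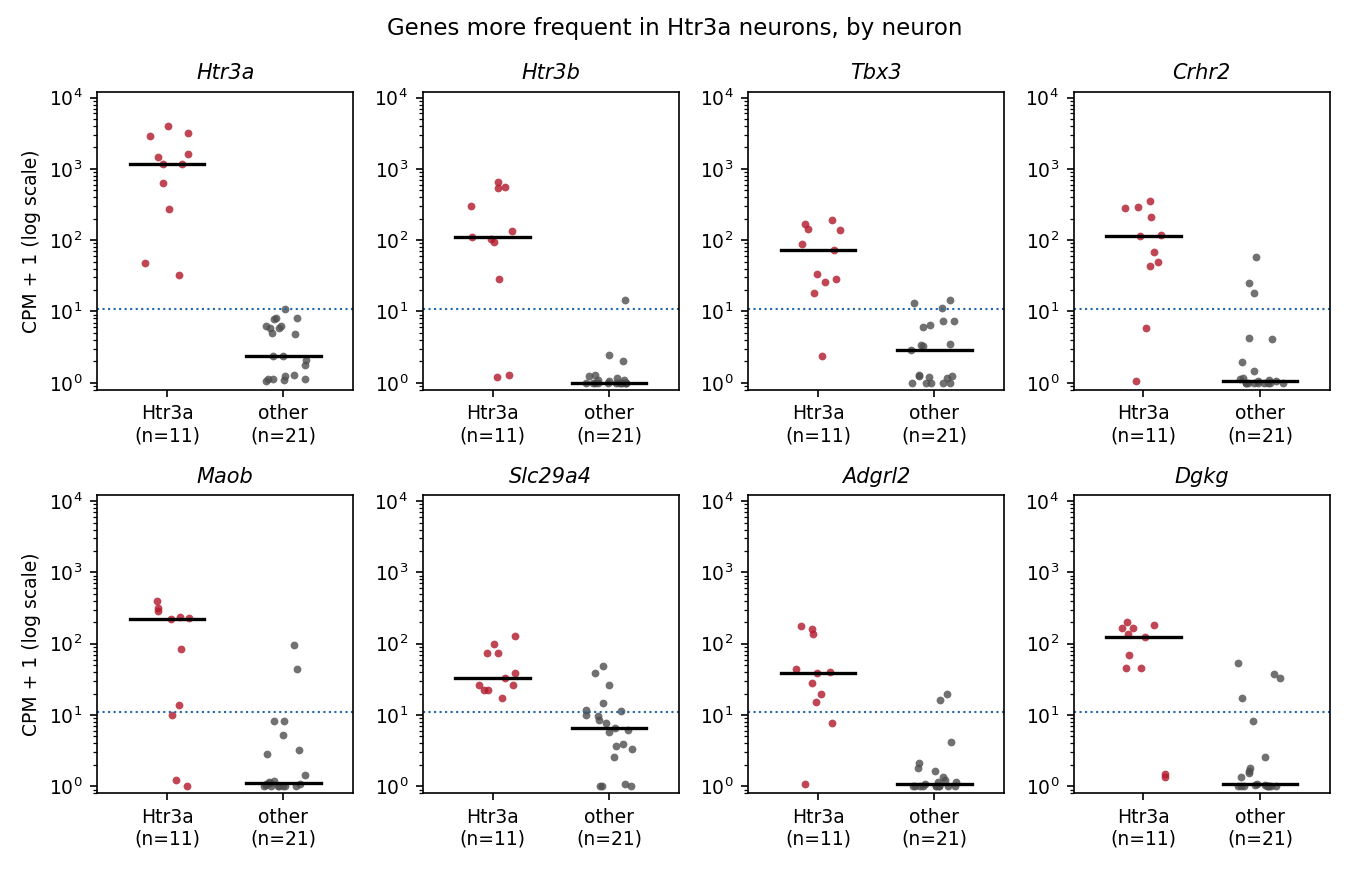
Level of 8 genes in each kept neuron, as CPM + 1 on a log axis, with red points for the 11 Htr3a neurons, grey points for the 21 other neurons, bars at the medians and a dotted line at 10 CPM. Htr3a is shown as the gene that chose the groups, and Htr3b reached 27.7 to 656 CPM in 9 Htr3a neurons and at most 13.3 CPM in the others.

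Tbx3 (chromosome 5, 119670669 to 119684724), a T-box repressor, was found in 10 of 11 Htr3a neurons (90.9%, 58.7 to 99.8%) and 3 of 21 other neurons (14.3%, 3.05 to 36.3%), and ran from 1.36 to 190.2 CPM (median 72.4) in the Htr3a neurons and from 0 to 13.3 CPM (median 1.92) in the other neurons. The 10 Htr3a neurons that had it lay between 16.95 and 190.2 CPM, above every other neuron, and AM272 had 1.36 CPM. Cux2, a homeobox factor, was in 10 of 11 Htr3a neurons and 5 of 21 other neurons at medians of 61.5 against 1.65 CPM. Nrf1, a regulator of mitochondrial genes, was in 10 and 5 neurons, but its medians were 15.3 against 6.72 CPM and its highest levels 29.5 and 64.6 CPM, and at a threshold of 50 CPM its difference was -4.76 points. Tbx3 overlaps Tbx3os1 on the opposite strand, and Tbx3os1 was called higher too, in 5 of 11 Htr3a neurons and 0 of 21 other neurons. Whether Tbx3 and Tbx3os1 share reads was not tested. Of 18 tested transcription factors in the list, none was called higher and Prrxl1 was called lower, beside 1.20% of all genes called lower. Prrxl1, a homeobox gene of nociceptors, was in 2 of 11 Htr3a neurons and 13 of 21 other neurons. Its difference of -43.7 points was -12.2 at an Htr3a threshold of 5 CPM and -31.8 against other neurons below 1 CPM of Htr3a. At detection thresholds of 5, 20 and 50 CPM it was -34.6, -34.2 and -38.1 points, short of the rule. At a minimum of 7000 genes it was -65.7 points. The 4 Hox genes tested had no call.

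Crhr2 (chromosome 6, 55090049 to 55133016), a receptor for urocortins, was found in 9 of 11 Htr3a neurons (81.8%, 48.2 to 97.7%) and 3 of 21 other neurons (14.3%, 3.05 to 36.3%), and ran from 0.0603 to 352 CPM (median 113) in the Htr3a neurons and from 0 to 57.7 CPM (median 0.0685) in the other neurons. Its 9 positive Htr3a neurons were those with Htr3b. Adgrl2, a latrophilin, was found in 9 of 11 Htr3a neurons and 2 of 21 other neurons at medians of 37.5 against 0.0606 CPM. Oprk1, the kappa opioid receptor, was found in 6 of 11 Htr3a neurons and 1 of 21 other neurons. It was the one call among 7 inhibitory receptors tested, beside 1.39% of all genes called higher. The difference of Oprk1 came down to 4.33 points at a threshold of 50 CPM. Cnr1 and Gabbr1, other inhibitory receptors, were in all 32 neurons. In the lower direction, Ptgfr, the receptor for prostaglandin F2 alpha, was found in 1 of 11 Htr3a neurons and 14 of 21 other neurons at medians of 0.121 against 31.6 CPM. It was the one call by share among 13 inflammatory mediator receptors tested, beside 1.20% of all genes called lower. The difference of Ptgfr came down to -19.5 points at 50 CPM. F2r, a thrombin receptor, was 4-fold higher by level, and the prostaglandin receptor Ptger4 was in 9 and 18 neurons. The 15 tested cytokine and innate immune receptors and the 8 tested neurotrophic factor receptors had no call, with Ifngr2, Lifr and Ret in all 32 neurons.

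Ligand-gated channel subunits had calls in both directions, beside 1.39% of all genes called higher and 1.20% called lower. Chrna3 (chromosome 9, 55010111 to 55026562), a nicotinic subunit, was found in 6 of 11 Htr3a neurons (54.5%, 23.4 to 83.3%) and 3 of 21 other neurons (14.3%, 3.05 to 36.3%), and ran from 0 to 472 CPM (median 40.4) in the Htr3a neurons and from 0 to 82.2 CPM (median 0.0548) in the other neurons. Chrnb4 (chromosome 9, 55028154 to 55048779), which pairs with it, was found in 6 of 11 Htr3a neurons (54.5%, 23.4 to 83.3%) and 2 of 21 other neurons (9.52%, 1.17 to 30.4%), and ran from 0 to 176 CPM (median 25.8) in the Htr3a neurons and from 0 to 32.5 CPM (median 0) in the other neurons. These were the calls among 5 tested nicotinic and muscarinic receptor genes, and Chrnb2 was in 8 and 18 neurons. Both lie on chromosome 9 with 1.59 kb between them, and Chrnb4 overlaps Gm47877 on the opposite strand. The difference of Chrna3, 40.3 points, fell below the rule when any of 24 kept neurons was left out, down to 35.7 points. P2rx2, an ATP-gated channel of nodose neurons, was in 10 and 16 neurons, and ran from 5.03 to 377 CPM (median 198) in the Htr3a neurons and from 0.0924 to 146 CPM (median 23.6) in the other neurons. Its median was thus 4-fold higher by the level rule, a difference of 2.63 in log2(CPM + 10), and 9 of 11 Htr3a neurons stood above 100 CPM with AM020 at 93.9 and AM272 at 5.03 CPM. P2rx3 was in 7 and 11 neurons at medians of 11.3 against 11.2 CPM, and Adora1 in 9 and 21, and none of the 8 tested purinergic receptors was called by share. Of 8 tested GABA-A and glycine receptor subunits, Gabrb1 was lower, in 1 of 11 Htr3a neurons and 13 of 21 other neurons, while Glrb was in 11 and 19. The difference of Gabrb1 came down to -14.7 points at a threshold of 50 CPM. Gabrb1 overlaps Gabra4 on the opposite strand.

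Among 9 tested TRP channels, Trpc4 alone was called higher by share, beside 1.39% of all genes. Trpc4 (chromosome 3, 54156035 to 54318471), a calcium-permeable channel, was in 7 of 11 Htr3a neurons (63.6%, 30.8 to 89.1%) and 1 of 21 other neurons (4.76%, 0.120 to 23.8%). It ran from 0 to 178 CPM (median 12.6) in the Htr3a neurons and from 0 to 38.4 CPM (median 0) in the other neurons. The difference of Trpc4, 58.9 points, fell below the rule in several settings. It was 36.4 points at a threshold of 50 CPM and 34.5 points at an Htr3a threshold of 5 CPM. Without the 5 Htr3a neurons with Trpa1 it was 28.6 points. Trpv1, the capsaicin receptor, stood just short of the rule at 39.8 points, in 7 of 11 Htr3a neurons and 5 of 21 other neurons, and was higher by the level rule at medians of 36.5 against 0.495 CPM. Its highest value, 923 CPM, belonged to AM021, a neuron without Htr3a by the rule (6.92 CPM). Trpa1, the receptor for irritants, was in 5 and 4 neurons, with medians of 0.428 against 0.206 CPM. The highest Trpa1 value, 2415 CPM, was likewise in AM021. Trpv1 and Trpa1 were named after their values were seen. Of all 12 kept neurons with Trpv1, 7 were Htr3a neurons, as were 5 of 9 with Trpa1.

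Of 10 tested mechanically gated and acid-sensing channels none was called by share. Piezo2, the stretch-activated channel of mechanoreceptors, was in 3 of 11 Htr3a neurons and 11 of 21 other neurons and was 4-fold lower by level, at medians of 0.641 against 78.4 CPM. Its range reached 332 CPM in the Htr3a neurons and 600.1 CPM in the others, so the groups overlapped. Kcnk2, a stretch-sensitive potassium channel, was in 10 and 16 neurons.

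Voltage-gated channels had calls in both directions, beside 1.39% of all genes called higher and 1.20% called lower. Scn3a, a sodium channel that is prominent in embryonic neurons, was the call among 12 tested sodium channels, in 8 of 11 Htr3a neurons and 2 of 21 other neurons, and ran from 0 to 88.9 CPM (median 12.4) in the Htr3a neurons and from 0 to 223.3 CPM (median 0.0660) in the other neurons. Scn7a and Scn9a were in all 32 neurons and Scn11a in 10 and 18. Cacna1e, the R-type calcium channel, was the call among 12 tested calcium channel genes, in 5 of 11 Htr3a neurons and 1 of 21 other neurons, a difference of 40.7 points that fell to 35.2 when any of the 5 Htr3a neurons with it was left out. Kcna1 (chromosome 6, 126640397 to 126646384), a potassium channel that delays firing, was at 10 CPM or more in 0 of 11 Htr3a neurons (0%, 0 to 28.5%) and 14 of 21 other neurons (66.7%, 43.03 to 85.4%). Its level ran from 0 to 9.05 CPM (median 0.0734) in the Htr3a neurons and from 0 to 129 CPM (median 28.8) in the other neurons. Kcnv1, a silent subunit, was the second called of 23 tested potassium and HCN channel genes, in 1 of 11 Htr3a neurons and 12 of 21 other neurons. By level Kcnc2 and Kcns3 were 4-fold higher and Kcnt1 4-fold lower, and Kcns3, a silent subunit named after its values were seen, was in 9 of 11 Htr3a neurons and 9 of 21 other neurons. Kcnip3 (chromosome 2, 127456498 to 127522094), which binds Kv4 channels and calcium, had the largest difference on the lower side, in 2 of 11 Htr3a neurons (18.2%, 2.28 to 51.8%) and 18 of 21 other neurons (85.7%, 63.7 to 97.0%), and ran from 0 to 34.4 CPM (median 1.80) in the Htr3a neurons and from 1.02 to 161 CPM (median 49.8) in the other neurons.

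**Figure D3:**
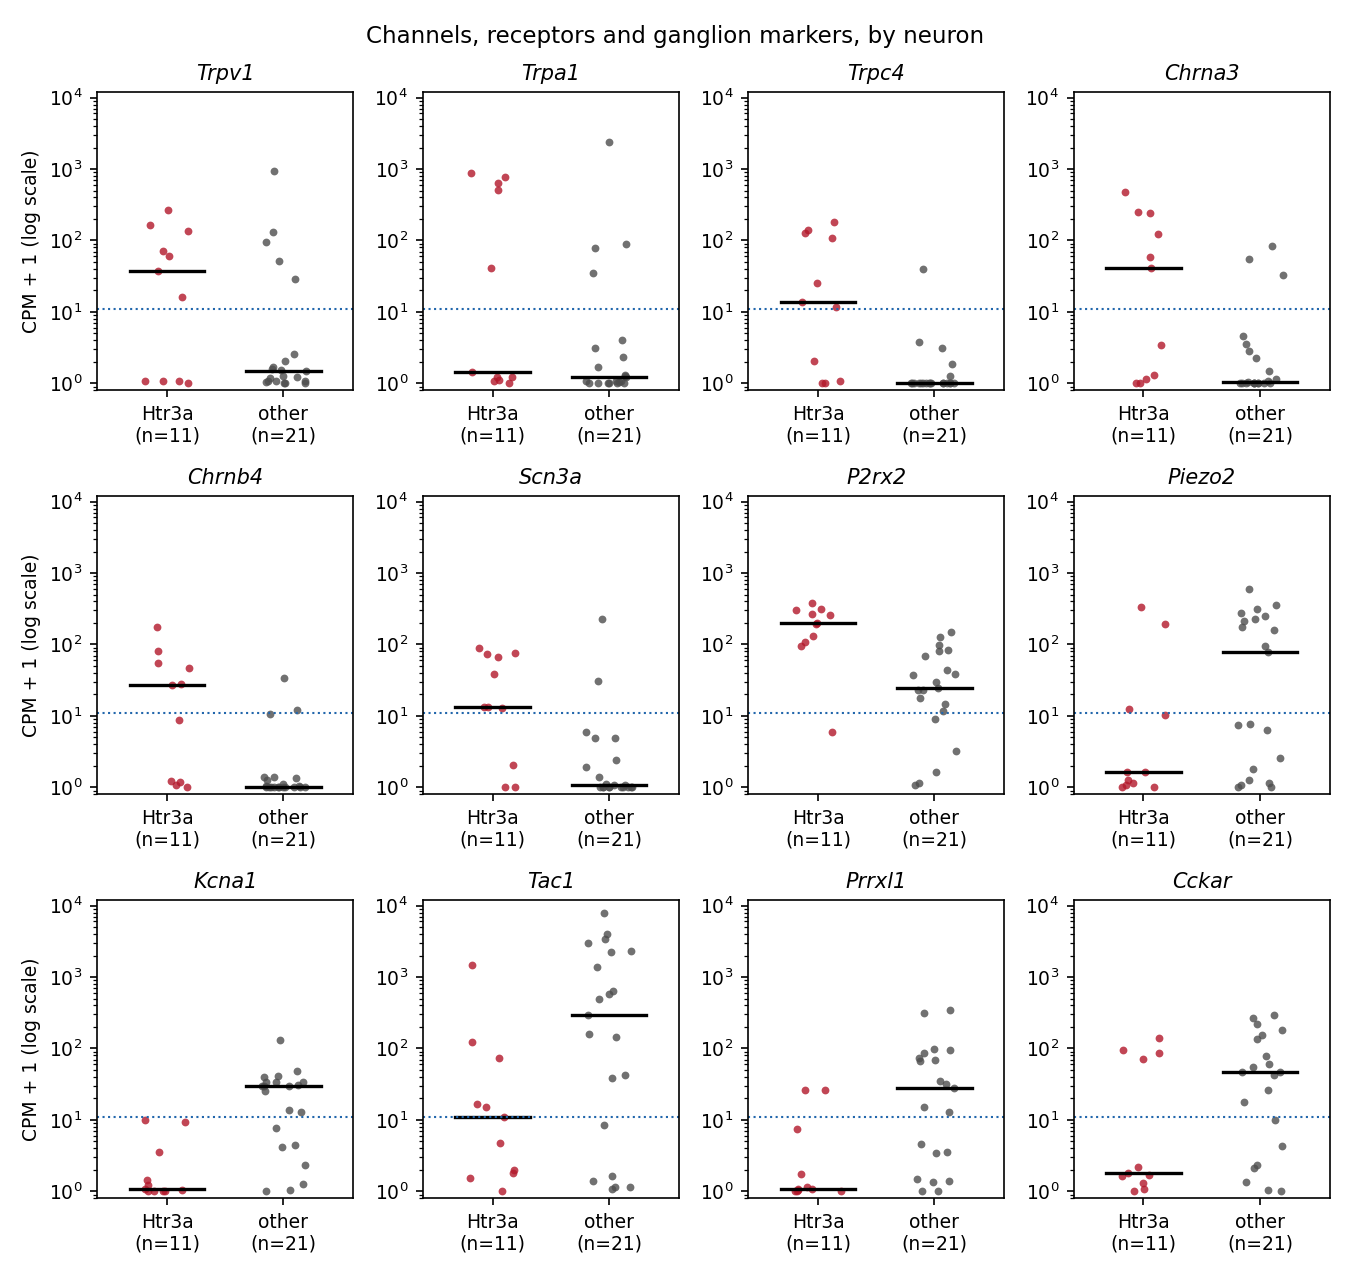
Level of 12 channel, receptor and ganglion marker genes in each kept neuron, as CPM + 1 on a log axis, with red points for the 11 Htr3a neurons, grey points for the 21 other neurons, bars at the medians and a dotted line at 10 CPM. Kcna1 stays below 10 CPM in every Htr3a neuron, and the 4 highest Trpa1 values of the Htr3a neurons stand apart from the other 7.

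Peptide genes had no call by share among 7 tested. Tac1, which encodes substance P, was in 6 of 11 Htr3a neurons and 15 of 21 other neurons and ran from 0 to 1468 CPM (median 10.01) in the Htr3a neurons and from 0.0782 to 7773 CPM (median 295.5) in the other neurons, a difference of -3.93 in log2(CPM + 10) that made it 4-fold lower. Cartpt, the CART peptide gene, named after its values were seen, was in 9 of 11 Htr3a neurons and 9 of 21 other neurons (38.96 points) and was 4-fold higher by level at medians of 170.5 against 8.18 CPM. Calca, which encodes CGRP, was in 3 and 5 neurons, Nmb in 10 and 16, and Adcyap1 in 8 and 16. Of 5 tested hormone receptors Cckar, the cholecystokinin receptor of visceral afferents, was in 4 and 14 neurons and 4-fold lower by level, and Npy2r was in 5 and 12.

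Hpca and Hpcal1, calcium sensors of the neuronal calcium sensor family, were called higher, while Kcnip3 of the same family was the largest call on the lower side. Hpca (hippocalcin) was in 7 of 11 Htr3a neurons (63.6%, 30.8 to 89.1%) and 0 of 21 other neurons (0%, 0 to 16.1%), and Hpcal1 in 11 of 11 Htr3a neurons and 12 of 21 other neurons at medians of 371 against 24 CPM. Vsnl1, of the same family and listed with A-fibre genes, was in 10 and 8 neurons, although the highest value of all, 1085 CPM, was in AM249, one of the other neurons. At a threshold of 50 CPM the difference was 9.09 points for Hpca and 8.23 points for Vsnl1, below the rule. With S100a11, in 11 of 11 Htr3a neurons and 8 of 21 other neurons, Hpca and Hpcal1 were the 3 calls among 10 tested calcium-binding proteins, beside 1.39% of all genes called higher. S100a6 was 4-fold lower by level, at medians of 96.9 against 1326 CPM, and Ncald 4-fold higher. Hpca overlaps Tmem54 on the opposite strand, and Tmem54 was called higher too, in 6 of 11 Htr3a neurons and 0 of 21 other neurons. Whether Hpca and Tmem54 share reads was not tested. Of 16 tested genes of vesicle release 1 was called higher and 1 lower, beside 1.39% and 1.20% of all genes. Syt5 was higher, in 8 of 11 Htr3a neurons and 6 of 21 other neurons. The difference of Syt5 came down to 9.09 points at a threshold of 50 CPM and to 13.3 points without the third block of neurons described below. Sv2b, a synaptic vesicle protein, was lower, in 1 of 11 Htr3a neurons and 14 of 21 other neurons at medians of 0.194 against 83.3 CPM. The glutamate transporter Slc17a6 and the complexin Cplx1 were in all 32.

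Of 17 tested axon guidance genes 3 were called lower, beside 1.20% of all genes: Slit1 in 1 of 11 Htr3a neurons and 16 of 21 other neurons, the semaphorin receptors Plxna4 in 5 and 19 and Plxnc1 in 4 and 18. Slit1 came down to -23.8 points at a threshold of 50 CPM, and Plxna4 to -24.7 points there and to -7.14 points without the 5 Htr3a neurons with Trpa1. Spon1, an adhesive matrix protein outside the list, was in 5 and 19 neurons at medians of 8.43 against 147 CPM. The 10 tested axon injury genes had no call, and Atf3 and Gap43 were in all neurons. Of 8 immediate early genes tested, Ier2 was called higher, beside 1.39% of all genes. Ier2 was in 10 of 11 Htr3a neurons and 6 of 21 other neurons, but differed by 22.5 points at 50 CPM. Fos and Egr1 were in all 32 at medians of 1060.1 against 534 CPM and 1054 against 350.3 CPM. Among 10 tested A-fibre genes Vsnl1 was higher and Kcna1 lower by share, beside 1.39% and 1.20% of all genes. The neurofilament Nefh was in all 32 at medians of 448 against 1165 CPM. Of 7 tested C-fibre genes Plxnc1 was called lower by share and level, Ctxn3 lower by level and Trpv1 higher by level. Over all genes 1.20% were called lower by share, and 0.485% were higher and 0.466% lower by level. Prph was in all 32 at medians of 3278 against 2919.9 CPM. Taking the 34 lists as one, 264 distinct genes were tested, of which 9 (3.41%) were called lower, beside 1.20% of all genes. Without Htr3a, which the rule fixed, 13 of 263 (4.94%) were called higher, beside 1.39% of all genes with Htr3a. The lists were chosen with earlier results of these data known.

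Outside the lists, the genes called higher by the largest differences were Samd9l (9 and 3 neurons), Mpped1 and Bex4 (each 7 and 0), Ccdc80 and Colq, the collagen tail of acetylcholinesterase (each 8 and 2). Btc, a ligand of the epidermal growth factor receptor, and the antiviral enzyme Oas1a were each in 6 and 0 neurons and were named after their values were seen. Among the largest differences in level were Dkk3, a secreted glycoprotein (158 against 1.20 CPM), the diacylglycerol kinase Dgkg (123 against 0.0674 CPM), Fxyd6, a regulator of the sodium pump (282.5 against 11.03 CPM), Sertm1 (215 against 9.96 CPM) and Bex1 (155 against 5.71 CPM), which overlaps Tceal7 on the opposite strand. Apoe, the lipid carrier that glia express strongly, had medians of 744 against 18.8 CPM and ranges that overlapped, from 4.60 to 1985 and from 0.313 to 6454 CPM. On the lower side stood Gm7271 and Gpc5 (each 1 and 16), Paqr5, a progestin receptor (0 and 14), Grip1, a scaffold of glutamate receptors (3 and 19), Slitrk4 (1 and 15), Lypd6b and Plpp4 (each 0 and 13), Rnf130 (2 and 16), and Sh3d19, Arpp21, Peak1 and AU022252 (each 3 and 18). By level the lowest were Gm765 (0.954 against 566 CPM), Tmem233 (24.6 against 888 CPM), the adhesion molecule Cntn1 (20.7 against 476 CPM), Tagln2 (6.12 against 220.6 CPM) and the protease Pappa2 (0.294 against 78.6 CPM).

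**Figure D4:**
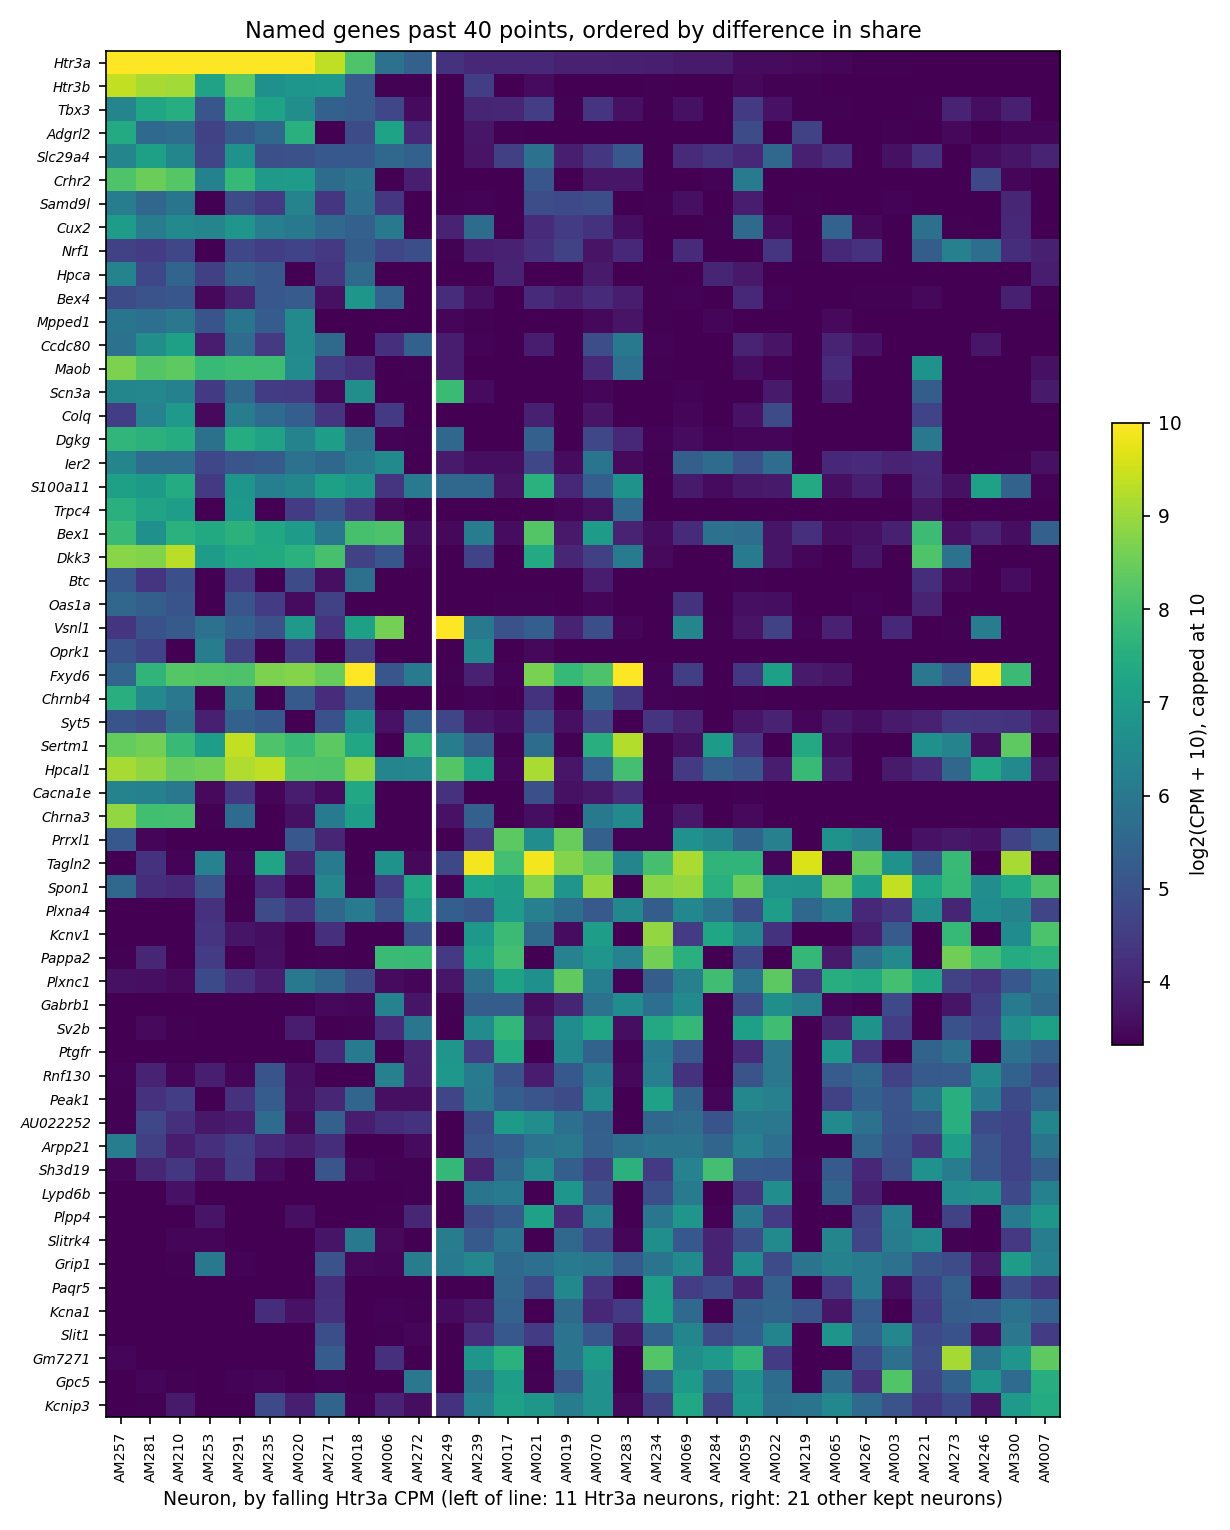
Level of the named genes with a difference of 40 points or more (rows, from the most positive difference at the top to the most negative) in the 32 kept neurons (columns, by falling Htr3a level within each set), as log2(CPM + 10) with colours capped at 10. The white line parts the 11 Htr3a neurons from the 21 others, and AM006 and AM272, at the right end of the first set, lack several of the upper rows.

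The Htr3a neurons were not alike. Htr3b, Tbx3, Crhr2, Maob and Slc29a4, chosen after their values were seen, were all at 10 CPM or more in 8 of 11 Htr3a neurons. AM018 had 4 of them, with Maob at 8.85 CPM. AM006 had Tbx3 and Slc29a4, and AM272 had Slc29a4 alone. Of the other neurons 11 had none of the 5, 6 had 1, 3 had 2, and AM021 had 3. Cckar stood at 93.7, 139, 86.7 and 70.7 CPM in AM006, AM272, AM018 and AM020, and Piezo2 at 9.17, 191, 332 and 11.6 CPM, while in the remaining 7 Htr3a neurons both were below 10 CPM. Without AM272 the genes called higher were 240 (2.29% of those tested) and not 146, and without both neurons they were 2.30%. Leaving out AM271 moved the genes called lower from 126 to 195, and leaving out AM235 to 188.

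In 4 Htr3a neurons (AM210, AM257, AM281 and AM291) Trpa1 stood between 515 and 872 CPM, whereas in the other 7 it reached at most 39.7 CPM. This split was made on Trpa1 after the values were seen, and what follows is a description. All 4 lay in the third of the blocks of neuron numbers described below. So did AM235, AM253, AM271 and AM272 of the other 7, whereas AM006, AM018 and AM020 lay in the first. The part of the blocks in this split was not tested. High Trpa1 was not confined to Htr3a neurons, since AM021, one of the other neurons, had 2415 CPM. The 4 neurons had Htr3a from 1454 to 4054 CPM and Htr3b from 301.1 to 656 CPM, all above the 135 CPM that Htr3b reached in the other 7. Trpc4 lay between 108 and 178 CPM in the 4 and at or below 24.2 CPM in the 7, Slc29a4 between 72.6 and 128 against 16.5 and 37.2 CPM, and Crhr2 between 211.8 and 352 against 0.0603 and 118 CPM. Trpv1, Chrna3, Chrnb4, Scn3a and Npy2r were at 10 CPM or more in all 4. Of the other 7, 3 had Trpv1, 2 had Chrna3, 2 had Chrnb4, 4 had Scn3a and 1 had Npy2r. Piezo2, Cckar and Calca were in none of the 4, and in 3, 4 and 3 of the other 7. Of the 7 Htr3a neurons with Trpv1, all 7 had Trpc4 and Htr3b, 6 had Chrna3, 6 had Chrnb4 and 5 had Trpa1. Among the 5 other neurons with Trpv1, 1 had Trpc4, 2 had Chrna3, 2 had Chrnb4 and none had Htr3b. When the 5 Htr3a neurons with Trpa1 were left out, the difference of Chrnb4 was 7.14 points and that of Btc 16.7 points.

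Transcripts of other cell types were present in both sets. All 8 satellite glia markers reached 10 CPM in at least 1 neuron of each set, and their sum ran from 374 to 3897 CPM in the Htr3a neurons (median 1001) and from 179 to 4817 CPM in the others (median 1250). By level Fabp7, one of the 8, was called 4-fold higher, and none was called by share. The sum of 6 Schwann cell markers ran from 55.8 to 1322 CPM (median 480) and from 362 to 1207 CPM (median 775), with no call among the 4 tested. The 5 endothelial markers summed to at most 42.9 CPM in the Htr3a neurons, where Tek was at 0, and to 4.83 CPM in the others. The 6 leukocyte markers summed to at most 30.5 and 44.6 CPM, with Ptprc at 0 in the Htr3a neurons. The 5 fibroblast markers summed to at most 211 and 177 CPM and the 5 erythrocyte markers to 19.9 and 37.2 CPM, with Alas2 at 0 in the other neurons. Of these 4 types, 3 fibroblast markers and 1 erythrocyte marker entered the comparison and none was called. Sums over 10 pan-neuronal genes ran from 8826 to 20816 and from 8813 to 22419 CPM. The part of glial RNA in the differences, that in Apoe among them, was not tested beyond leaving out neurons with over 2000 CPM of satellite glia markers, which left 9 and 17 neurons and gave 2.82% of genes called lower by share, 78 genes higher by level and 81 lower by level.

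Neuron numbers in the labels fall into 3 blocks, which are not said to be batches. The Htr3a neurons were 3 of 9, 0 of 4 and 8 of 19 kept neurons in the 3 blocks, so the second block holds no comparison. In the first block Htr3b was in 2 of 3 Htr3a neurons against 0 of 6 other neurons, Tbx3 in 3 against 1, Crhr2 in 2 against 1, Maob in 1 against 0, Kcna1 in 0 against 4 and Kcnip3 in 0 against 6. In the third block Htr3b was in 7 of 8 Htr3a neurons against 1 of 11 other neurons, Tbx3 in 7 against 0, Crhr2 in 7 against 1, Maob in 7 against 2, Kcna1 in 0 against 8 and Kcnip3 in 2 against 8. These 6 genes differed in the same direction in both blocks. They were chosen by their difference over all kept neurons, of which the blocks are parts, so this is no separate check. Without the third block, 14 of the 57 genes named as called by share lost their call, Maob at 33.3 points among them. For Slc29a4 the first block had 3 of 3 and 3 of 6 neurons and the third 8 of 8 and 2 of 11. For Hpcal1 they had 3 of 3 and 1 of 6, and 8 of 8 and 8 of 11. Oas1a was found in the third block alone, in 6 of 8 Htr3a neurons.

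The 33 neurons left out for gene number gave the same contrast in neurons that the calls did not use, 18 with Htr3a and 15 without. They had between 841 and 4870 genes at 10 CPM or more, with medians of 3356 genes in those with Htr3a and 2953 in those without, and Htr3a from 11.5 to 1419 CPM. Of 6471 genes tested in them, 86 (1.33%), Htr3a included, were higher by 40 points or more with Htr3a and 9 (0.139%) lower. Of the genes called in the kept neurons, Htr3a left aside, 0 passed 40 points there in either direction. Of the 145 genes called higher, 87 (60%) leaned the same way, beside 55.2% of all genes, and 20 (13.8%) by 20 points or more, beside 11.4%. Of the 126 called lower, 65 (51.6%) leaned the same way, beside 38.02% of all genes, and 4 (3.17%) by 20 points or more, beside 3.71%. At 20 points or more the shares of called genes thus stood near those of all genes, and a lean to the higher side was general in neurons with Htr3a, at a median of 3.33 points.

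Single genes were unequal in these neurons. Htr3b was in 5 of the 18 with Htr3a, Tbx3 in 6, Maob in 5, Chrna3 in 5, Chrnb4 in 4 and Trpv1 in 5, and each in 0 of the 15 without. By the approximate limit of 3 over the number of neurons, 0 of 15 allows a share of up to 20%. P2rx2 was in 11 with and 2 without Htr3a, Cartpt in 12 and 2, Fxyd6 in 13 and 5, and Sertm1 in 9 and 2. By contrast, Crhr2 was in no left-out neuron, Slc29a4 in 2 and 1, Adgrl2 in 1 and 1, and Cux2 in 0 and 3. Trpc4 was in 1 of the 18 with Htr3a and 0 of the 15 without. Among genes lower in the kept Htr3a neurons, Kcnip3 was in 1 and 5, Kcna1 in 2 and 2, Slit1 in 3 and 1, and Prrxl1 in 4 and 3. Plxna4 leaned the other way, in 7 and 1, a difference of 32.2 points. Cckar, in 10 and 2, leaned the other way from the kept neurons, and Calca was in 10 and 2.

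**Figure D5:**
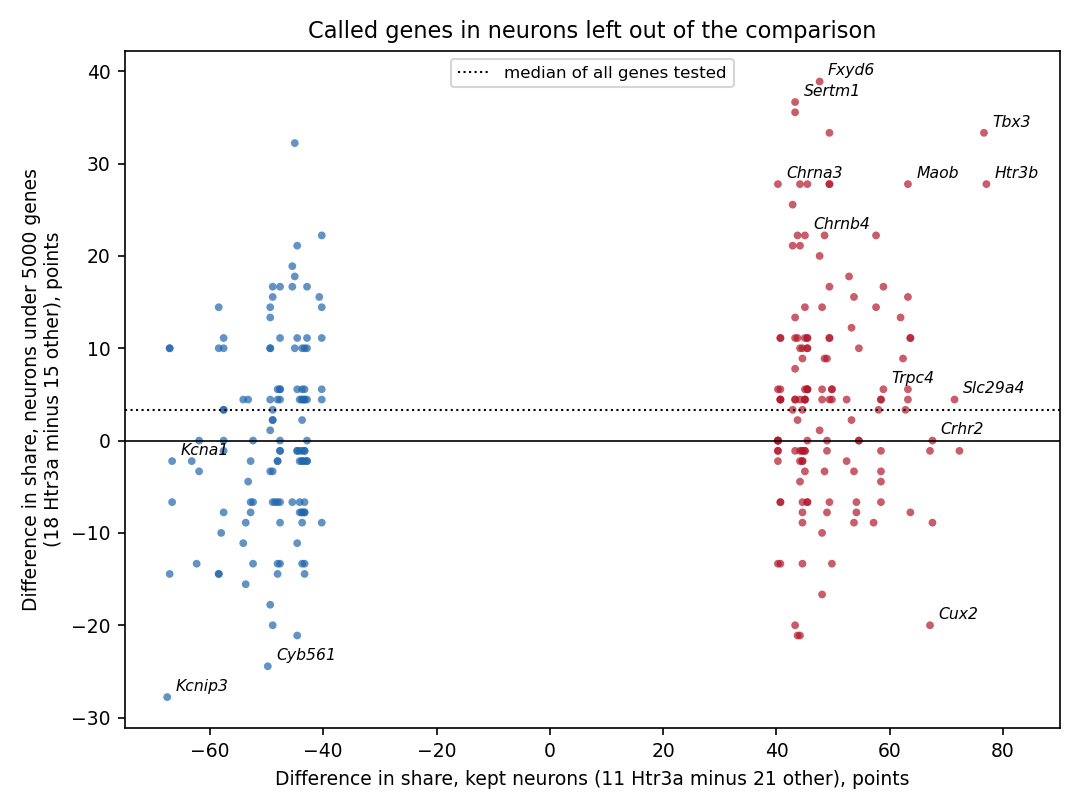
Difference in share between neurons with and without Htr3a (points) in the 32 kept neurons (horizontal axis) and in the 33 neurons left out for gene number (vertical axis), for the genes called higher (red) and lower (blue) in the kept neurons, Htr3a left aside. The dotted line is the median of all genes tested, 3.33 points, and Htr3b and Maob lie at 27.8 and Tbx3 at 33.3 points in the left-out neurons whereas Crhr2 lies at 0.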

How the data were processed

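The authors deposited unnormalized counts of reads, in whole numbers, for 50686 Ensembl genes in 84 single neurons. Reads were assigned to genes with featureCounts, per the submitters' processing notes; the sources used here give no version, aligner, genome build, annotation or strand setting. No molecular identifiers are named, so amplified copies count repeatedly. Symbols and coordinates came from GENCODE M21 (GRCm38), which matched 50376 identifiers; the other 310 held at most 0.253% of any neuron's counts. CPM was computed from each neuron's total. Genes at 10 CPM or more in at least 5 kept neurons were tested against the size rules, and fold differences use medians of log2(CPM + 10). No label names an animal, so nothing was tested by p-value. No neuron's counts repeated another's, and kept neurons correlated at 0.959 or less on the log2(CPM + 1) scale. The members, the 34 gene lists and the rules were chosen with earlier results of these data known. Named genes were all members of the serotonin, chaperone, nodose and jugular lists, in each other list the 2 most widespread members and up to 4 members with the largest differences of 40 points or more, and over all genes the 15 per direction by share and the 10 per direction by level. List members called by level alone, and genes whose sentence says so, were named after their values were seen. Blocks are runs of neuron numbers parted by gaps of more than 30. Analyses used Python 3.11.15, numpy 2.4.6, pandas 2.3.3, scipy 1.17.1 and matplotlib 3.10.9, with TMM factors from edgeR 4.0.16 in R 4.3.3 as an alternative scaling and seed 1. The rule on share was tried on simulated counts, and the exact interval on a known answer.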

Additional observations from a re-analysis of the deposited data

How the results depend on the processing

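The share of tested genes that was called depended on the settings, and the cause of the changes below was not tested. Beside 1.39% of genes higher and 1.20% lower by share, and 0.485% and 0.466% by level, thinning gave 1.82% lower. An Htr3a threshold of 5 CPM (17 against 15 neurons) gave 0.228% lower by share and 0.295% and 0.190% by level, and one of 50 CPM gave 2.69% higher. Limiting the other neurons to the 8 below 1 CPM of Htr3a gave 2.75% and 2.84%. A minimum of 4000 genes gave 0.523% higher, 6000 gave 2.98% lower by share and 0.736% by level, and 7000 gave 5.60% and 0.973%. Without block 1 there were 3.85% higher and 1.89% lower by share and 0.785% higher by level, and without block 2 there were 2.11% higher. Without block 3, which left 3 Htr3a neurons against 10, there were 13.8% lower by share and 1.04% and 2.46% by level. Detection at 1 count gave 0.476% and 0.419%, a rule of 30 points 3.52% and 3.94%, a rule of 50 points 0.419% and 0.324%, a pseudocount of 1 CPM 2.85% and 3.55%, and one of 50 CPM 0.105% and 0.0571%. Of alternatives chosen after seeing the data, leaving out Htr3a neurons under 50 CPM gave 2.30% higher, leaving out glia-rich neurons 2.82% lower by share and 0.770% and 0.800% by level, and leaving out Htr3a neurons with Trpa1 2.52% lower. Leaving out each neuron in turn, also chosen after seeing the data, gave 1.35 to 2.29% higher and 1.22 to 1.87% lower by share and 0.383 to 0.553% and 0.421 to 0.623% by level, and 116 of the 146 and 119 of the 126 genes passed in every case. TMM scaling, detection at 5, 20 and 50 CPM and the filter on genes kept these shares within 1.5 times, with 12 Htr3a neurons under TMM scaling. An Htr3a threshold of 20 CPM and Prdm12 below 1 CPM left the same 11 and 21 neurons, so these settings could change nothing. For named genes, called or not, 2870 of 2964 differences in share stayed inside their main interval and 93 moved out of it. The 2964 include the settings that could change nothing. Of the 57 called by share, 40 had such a move or a change of sign under at least 1 alternative. Their calls were lost most often at a detection threshold of 50 CPM (38), at an Htr3a threshold of 5 CPM (29), at a detection threshold of 5 CPM (16), without the Htr3a neurons with Trpa1 (15), without block 3 (14) and at a detection threshold of 20 CPM (11), and at most 7 in any other alternative. Nrf1 turned to -4.76 points at a detection threshold of 50 CPM. No paired analysis was possible because the labels hold 1 group and pair no neurons.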
